A study of Homo sapiens with 6 samples.

Results

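The genes described here encode the proteins that build and fill the core of the spliceosomal small nuclear ribonucleoproteins (snRNPs). They are the SMN complex, the methylosome and the Sm and LSm proteins, chosen by name as 36 gene symbols, and all 36 were found among the 58735 genes of the deposited table. The count of a gene is the sum over its transcripts. By role they fall into 6 groups, with 8 Sm core genes, 5 genes for proteins specific to the U1 or U2 snRNP, 8 LSm genes, 2 genes specific to the U7 snRNP, 10 SMN complex genes and 3 methylosome genes.

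An snRNP consists of a small nuclear RNA (snRNA), a ring of Sm proteins around it, and proteins particular to each snRNP. In the cytoplasm the methylosome, made of the arginine methyltransferase PRMT5 with WDR77 and the chaperone pICln (CLNS1A), binds Sm proteins and methylates arginines in the tails of some of them. The SMN complex then loads the ring onto the snRNA. Related LSm proteins form a ring on U6 snRNA in the nucleus and another, holding LSM1 in place of LSM8, that takes part in mRNA decapping in the cytoplasm. Dividing leukaemia cells express these genes as part of their general RNA-processing machinery.

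The study asked about proliferation and drug resistance linked to annexin A1 (ANXA1) in B cell acute lymphoblastic leukaemia. The siANXA1 group holds 3 libraries (genotype label "ANXA1 down-regulated") of cells that received a lentiviral ANXA1-silencing construct. The siControl group holds 3 libraries (genotype label "WT") of cells that received an empty vector. All 6 libraries are labelled as CCRF-SB, a lymphoblast-like human cell line from peripheral blood, collected on day 5. Cells were selected with puromycin as stable lines, and the labels do not say whether a line was 1 clone or a mixed pool, nor whether replicates were separate cultures. The p-values below therefore set the difference between the groups against no more than the spread of these libraries within groups, and that spread may be technical.

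Total counts with a gene lay between 21333951 in siANXA1 replicate 2 and 44148505 in siANXA1 replicate 1, and the 36 genes together took 84387 to 200363 counts per library. ANXA1 itself had 1606, 1723 and 1712 CPM in siANXA1, against 3696, 3696 and 3756 CPM in siControl, so every siANXA1 library was below every siControl library. Its log2 fold change was -1.14 and its adjusted p 0.0571 in edgeR's quasi-likelihood test, just short of the threshold, while limma-voom gave 0.0197 and DESeq2 1.41e-17. CPM, the count of a gene relative to all counts of the library, are here scaled by TMM factors, and values are listed for replicates 1, 2 and 3 in that order. Defining markers of the B lineage were nearly absent: VPREB1, IGLL1, IGHM and DNTT had 0 counts in all 6 libraries, and the summed level of the 14 B lineage markers was 7.56 to 12.1 CPM in siANXA1 and 11.5 to 17.2 CPM in siControl (without TMM). Of 14 erythroid and megakaryocyte markers, 13 had a mean of 1 CPM or more. Together the 14 summed to 3235 to 3822 CPM in siANXA1 and 2105 to 3091 CPM in siControl (without TMM). The groups did not overlap in this sum, but it mixes markers that differed in direction. TFRC was its largest member in every library, at 1128, 1861 and 1064 CPM in siANXA1, against 1317, 2148 and 1325 CPM in siControl. HBG2 was higher in every siANXA1 library, at 756, 861 and 870 CPM, against 281, 277 and 511 CPM in siControl. ITGA2B had 5.03, 7.83 and 3.94 CPM in siANXA1, against 15.4, 15.97 and 6.16 CPM in siControl. PF4 had at most 0.0937 CPM. The part of this sum in the results below was not tested. Sums were at most 41.5 CPM in siANXA1 and 48.0 CPM in siControl for 8 myeloid markers, 24.5 CPM in siANXA1 and 39.2 CPM in siControl for 8 T and NK markers, and 27.1 CPM in siANXA1 and 26.99 CPM in siControl for 7 fibroblast and endothelial markers. On the first principal component of all tested genes, with 39.9% of the variance, siANXA1 replicate 2 and siControl replicates 1 and 2 had positive scores and the other 3 libraries negative ones, so the component crossed the groups. On the second component siANXA1 replicate 2 stood at -89.9, while the other 5 libraries lay between -7.84 and 41.9.

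Of the 36 genes, 35 passed the filter on low counts and entered the test of all 17947 genes. None of the 35 passed the threshold of an adjusted p under 0.05 in edgeR's quasi-likelihood test, which called 0.0111% of all genes tested, and 0 passed with limma-voom, which called 0.0167%. An unadjusted p under 0.05 was found for 3 of them in edgeR, where 7.93% of all genes had one. All 3 were higher in siANXA1 (DDX20, SNRPG and LSM3), where 3.4% of all genes were, and 0 were lower, where 4.52% of all genes were. Together the 36 genes had 6411, 5671 and 6318 TPM in siANXA1, against 5077, 5088 and 5775 TPM in siControl, where TPM is a level per transcript length, and siControl replicate 3 lay above siANXA1 replicate 2. In protein coding transcripts alone the groups did not overlap, with 5653, 5288 and 5595 TPM in siANXA1, against 4400.1, 4418 and 5072 TPM in siControl. The log2 fold change was positive for 26 of the 35, where 50.5% of all genes tested had a positive one, and their median was 0.17 against 0.01 over all genes. Without each library in turn, 24 to 27 of the 35 were positive, with medians from 0.10 to 0.28. The count of the 35 higher at an unadjusted edgeR p under 0.05 is given here with the share of all genes in brackets. It was 2 without siANXA1 replicate 1 (2.25%), siControl replicate 1 (1.98%) or siControl replicate 2 (2.04%). It was 3 without siANXA1 replicate 2 (4.20%), 4 without siANXA1 replicate 3 (2.16%) and 10 without siControl replicate 3 (9.46%). In bulk libraries, fewer cells of a kind and less RNA per cell cannot be told apart.

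**Figure D1:**
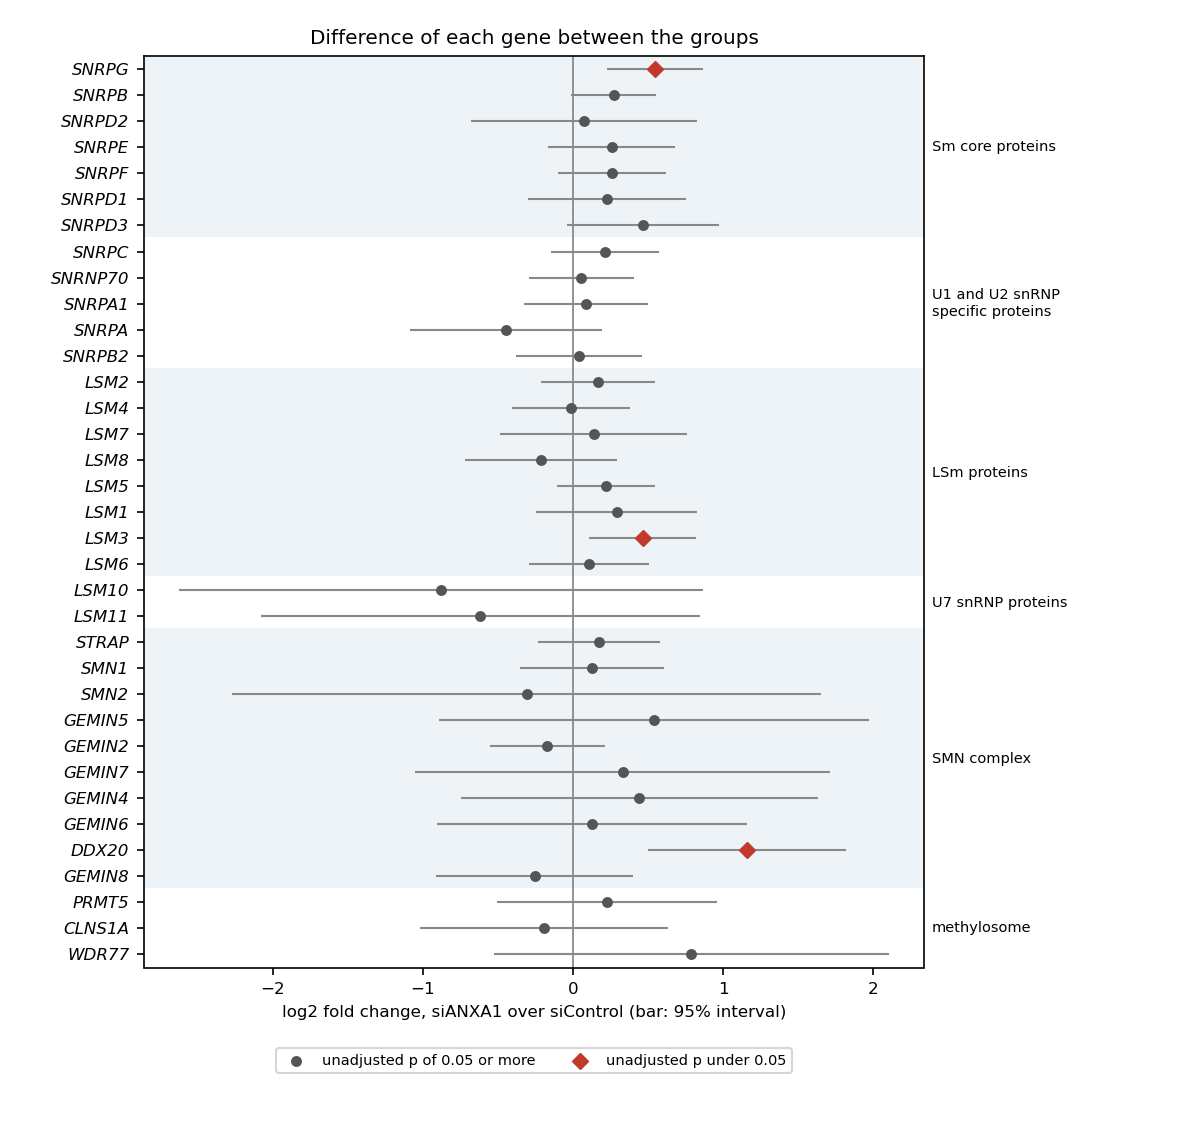
Log2 fold change of siANXA1 over siControl (x axis) with its 95% interval for the 35 tested genes, grouped by role. DDX20, SNRPG and LSM3 (red diamonds) have intervals above 0, while those of SMN2, LSM10, LSM11, GEMIN5 and GEMIN7 are the widest.

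The groups did not overlap in 6 of the 35 genes, where 14.6% of all genes tested had separate groups. In 5 of these every siANXA1 library was higher than every siControl library, where 7.41% of all genes were higher in that way. They were SNRPG, SNRPB, LSM3, LSM5 and DDX20. In the other, GEMIN2, every siANXA1 library was lower, where 7.24% of all genes were. The exact two-sided permutation test gave p = 0.1 for each of these 6 genes, the smallest that 3 against 3 libraries allow.

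**Figure D2:**
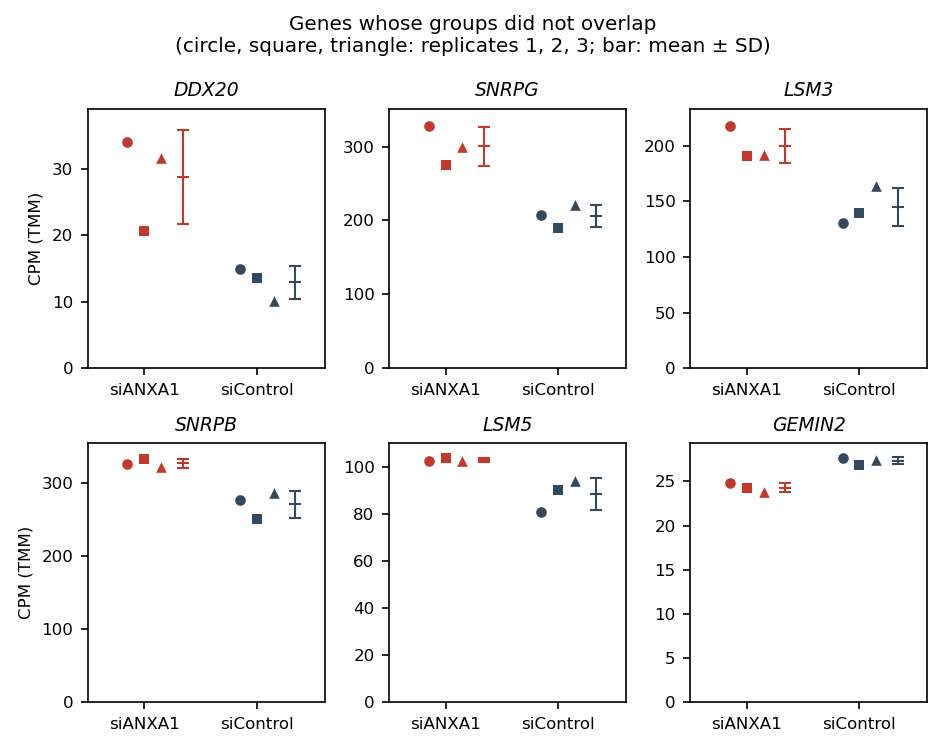
CPM with TMM scaling (y axes, from 0) in each library for the 6 genes whose groups did not overlap, with mean ± SD beside the points. The DDX20 libraries lie at 34.1, 20.7 and 31.7 CPM in siANXA1, against 14.96, 13.6 and 10.2 CPM in siControl, while those of GEMIN2 lie within a few CPM of each other.

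The Sm core genes encode the proteins of the ring shared by the U1, U2, U4 and U5 snRNPs. To compare genes with each other, levels were expressed per transcript length as TPM, the share of all transcripts scaled to a fixed total. The summed level of the 8 genes was 2586, 2369 and 2644 TPM in siANXA1, against 1891, 2049 and 2129 TPM in siControl, so the siANXA1 libraries all lay above the siControl libraries, with a ratio of the means of 1.25. Other measures of the libraries separated the groups too: of the counts with a gene, mitochondrial rRNA took 0.808, 1.09 and 0.787% in siANXA1, against 2.1025, 2.15 and 1.15% in siControl, and the 10 most counted genes took 7.85, 7.30 and 7.74% in siANXA1, against 9.87, 9.90 and 8.09% in siControl. Their part in these sums was not tested. All 7 tested genes of this group had a positive log2 fold change, with a median of 0.26, and none passed the adjusted threshold. SNRPG was the most abundant in every library, and the lowest was SNRPD1 or SNRPD3, so that the highest level was 8.28 to 12.5 times the lowest within a library. Mean levels over the 6 libraries were 721 TPM for SNRPG, 473 for SNRPB, 397 for SNRPD2, 342 for SNRPE, 188 for SNRPF, 80.9 for SNRPD1 and 76.7 for SNRPD3.

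SNRPG, which encodes SmG, had 328, 275 and 299 CPM in siANXA1, against 207, 190.0 and 221 CPM in siControl. The groups did not overlap, and the means were 300.3 ± 26.5 CPM in siANXA1 and 206 ± 15.4 CPM in siControl (SD, n = 3 each), with a log2 fold change of 0.54 ± 0.13 (SE). The unadjusted p was 0.00548 and the adjusted p 0.605 in edgeR's quasi-likelihood test, against 0.0617 in DESeq2. Without each library in turn its log2 fold change ranged from 0.48 to 0.61. The gene lies on chromosome 2 from 70281362 to 70293771, minus strand (GRCh38). Its coding transcript ENST00000272348, 625 bases long, held 91.7 to 95.5% of its TPM and had 13094, 5751 and 10286 counts in siANXA1, against 8222, 7029 and 7035 counts in siControl. SNRPG has 20 annotated pseudogenes named after it, which held 4.05% as many counts as the gene, and SNRPE has 9, which held 4.65%.

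SNRPB encodes SmB and, by splicing, SmB', whose tail carries arginines that the methylosome methylates. It had 327, 334 and 322 CPM in siANXA1, against 276, 251 and 286 CPM in siControl. These groups did not overlap either, and the log2 fold change was 0.27 ± 0.12 (SE; edgeR unadjusted p = 0.0561, adjusted p = 0.631). SNRPD3, another Sm protein with a methylated tail, stood at 87.1 ± 17.6 CPM in siANXA1 and 63.0 ± 9.13 CPM in siControl (SD, n = 3 each), and its groups overlapped. SNRPD1, SNRPE and SNRPF had log2 fold changes of 0.23, 0.26 and 0.26, each with a 95% interval that included 0. For SNRPD2 the spread within groups was the largest of the Sm core, at 166, 112 and 228 CPM in siANXA1, against 136, 211 and 134 CPM in siControl. SNRPN, the paralog of SNRPB that is expressed mainly in neurons and from the paternal allele, had 2 counts in siANXA1 replicate 1 and 0 in the other 5 libraries, and was not tested.

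Proteins specific to the U1 and U2 snRNPs had a median log2 fold change of 0.06. SNRPC, the U1-C protein at the U1 snRNP and 5' splice site contact, had 314, 259 and 291 CPM in siANXA1, against 240.1, 222 and 284 CPM in siControl. SNRNP70, the U1-70K protein that binds U1 snRNA, had 262, 257 and 277 CPM in siANXA1, against 240.2, 227 and 297 CPM in siControl. In both genes the groups overlapped, and the 95% intervals of the log2 fold change were -0.15 to 0.57 and -0.29 to 0.41. SNRPA1 (U2-A') and SNRPB2 (U2-B''), partners on U2 snRNA, had log2 fold changes of 0.09 and 0.04. SNRPA, the U1-A protein, was the 1 gene of the 5 with a negative value, at 50.3 ± 13.3 CPM in siANXA1 and 68.5 ± 14.2 CPM in siControl (SD, n = 3 each) (edgeR adjusted p = 0.678). The sum of this group was 1214, 1155 and 1197 TPM in siANXA1, against 1057, 991 and 1279.6 TPM in siControl, and siControl replicate 3 had the highest value of all 6 libraries.

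**Figure D3:**
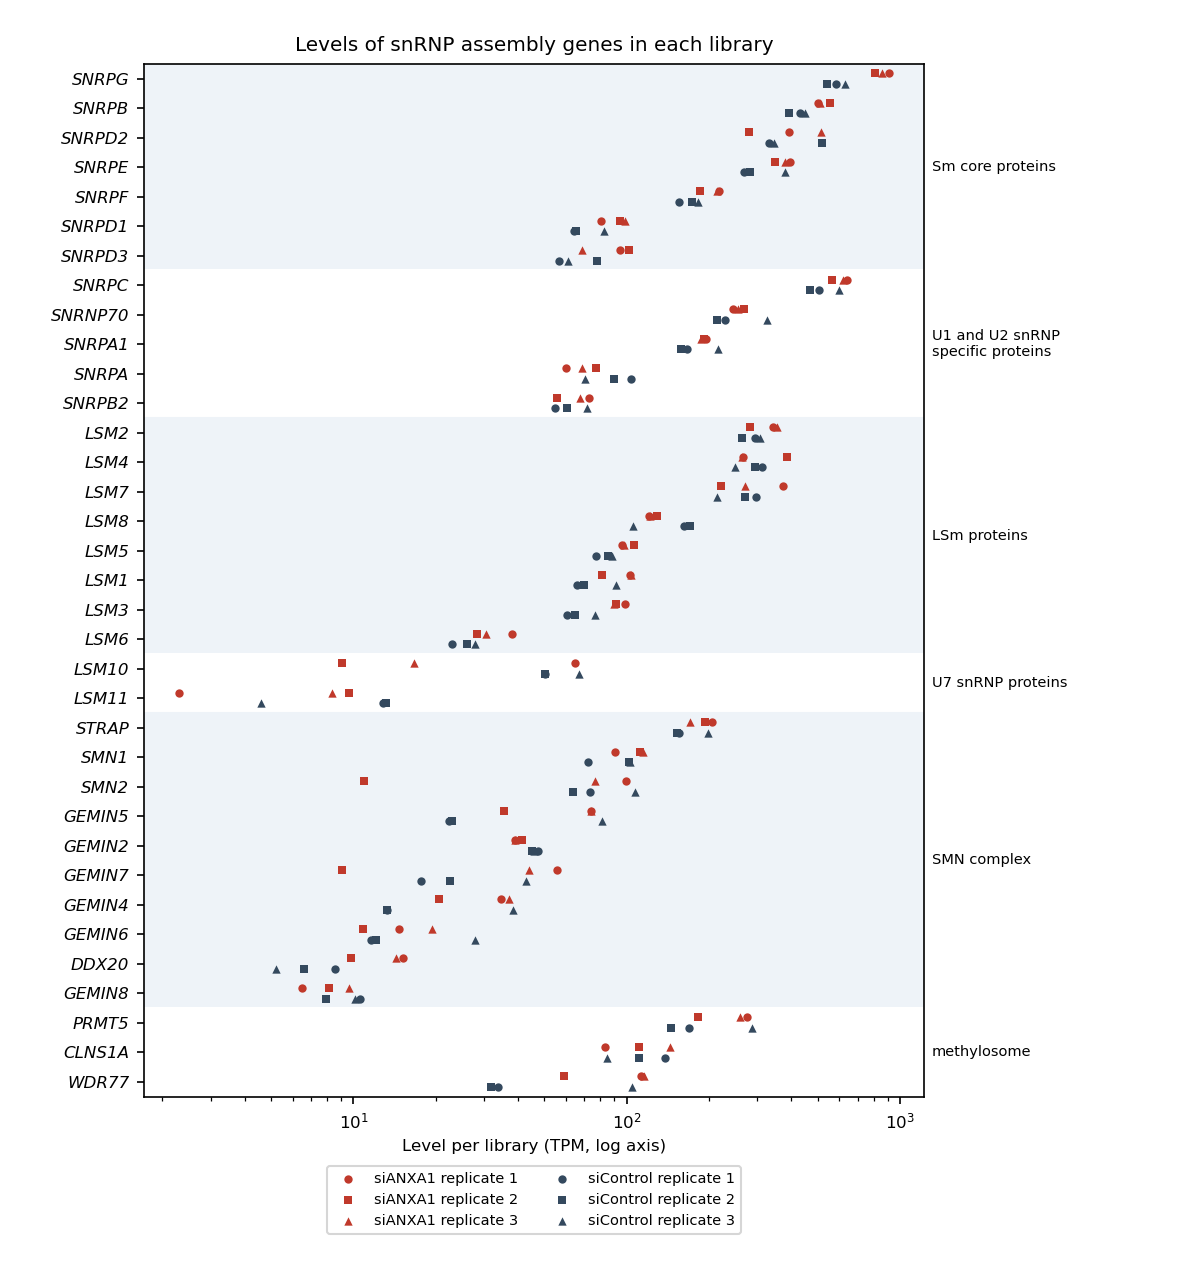
TPM per library (x axis, log scale) for the 35 genes with more than 2 counts, grouped by role and sorted by mean level, with siANXA1 in red above siControl in dark blue. SNRPG heads the plot with all red points above the blue ones, and LSM10, SMN2, GEMIN7 and LSM11 spread most.

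The LSm genes summed to 1437, 1325 and 1333 TPM in siANXA1, against 1293, 1247 and 1159 TPM in siControl, with all siANXA1 libraries above the siControl libraries and a ratio of the means of 1.11. Of the 8 genes, 6 had a positive log2 fold change. LSM3, a subunit of both LSm rings, had 218, 191 and 192 CPM in siANXA1, against 131, 139.8 and 164 CPM in siControl, without overlap. The gene lies on chromosome 3 from 14178358 to 14201119, plus strand (GRCh38). Its log2 fold change was 0.46 ± 0.15 (SE), with an edgeR unadjusted p of 0.0180 and adjusted p of 0.605, and leaving out each library gave 0.39 to 0.56. LSM5, also in both rings, had 102, 104 and 102 CPM in siANXA1, against 80.7, 90.2 and 93.9 CPM in siControl. Its groups did not overlap, and the log2 fold change was 0.22 (edgeR adjusted p = 0.686). LSM2 and LSM4, the most abundant of the group at means of 307 and 296 TPM, belong to both rings. LSM2 had 171, 133 and 171 CPM in siANXA1, against 145, 129 and 149 CPM in siControl. LSM4 had 191, 242 and 188 CPM in siANXA1, against 227, 217 and 183 CPM in siControl. In both the groups overlapped. LSM6, with log2 fold change 0.11, varied little, from 23.0 to 27.03 CPM over all libraries, and LSM7 stood at 86.9 ± 26.4 CPM in siANXA1 and 79.1 ± 13.0 CPM in siControl (SD, n = 3 each).

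LSM1 marks the cytoplasmic ring and LSM8 the nuclear ring on U6 snRNA. LSM1 had 103, 81.4 and 104 TPM in siANXA1, against 66.0, 69.7 and 91.4 TPM in siControl, and LSM8 had 121, 129 and 122 TPM in siANXA1, against 163, 169.8 and 105 TPM in siControl. The ratio of LSM1 to LSM8 in TPM was 0.851, 0.630 and 0.853 in siANXA1, against 0.406, 0.410 and 0.871 in siControl. siControl replicate 3 thus had the highest ratio and the other siControl libraries the lowest 2, so the groups overlapped. Neither gene passed the test (log2 fold changes 0.29 and -0.21, edgeR adjusted p = 0.743 and 0.791).

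LSM10 and LSM11 replace 2 Sm proteins in the ring of the U7 snRNP, which processes the 3' ends of replication-dependent histone mRNAs. LSM10 had 31.7, 3.88 and 8.24 CPM in siANXA1, against 24.3, 24.3 and 32.0 CPM in siControl. Its level was low in siANXA1 replicates 2 and 3 but not in replicate 1, and its coding transcript ENST00000315732 had 1271, 42 and 210 counts in siANXA1, against 915, 921 and 1020 counts in siControl. LSM11 had 8.79, 34.8 and 30.6 CPM in siANXA1, against 47.9, 48.7 and 16.9 CPM in siControl, with low values in siANXA1 replicate 1 and siControl replicate 3. The log2 fold changes were -0.88 ± 0.72 and -0.62 ± 0.61 (SE), with 95% intervals of -2.62 to 0.87 and -2.08 to 0.84, so a difference in either direction was not detectable at this spread. The log2 fold change of LSM10 was -2.14 without siANXA1 replicate 1 and -0.42 without siANXA1 replicate 2, and that of LSM11 was -0.21 without siANXA1 replicate 1 and -0.98 without siControl replicate 3. None of these passed. Summed, LSM10 and LSM11 had 67.1, 18.7 and 25.0 TPM in siANXA1, against 63.1, 63.5 and 71.5 TPM in siControl, with overlap. In CPM without TMM their sum was 39.9, 39.7 and 38.4 in siANXA1, against 73.6, 74.1 and 47.1 in siControl, without overlap. The sum was not tested.

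The 10 SMN complex genes summed to 635, 452 and 599.8 TPM in siANXA1, against 432, 449 and 659 TPM in siControl, with overlap, and 7 had a positive log2 fold change. The largest fold change among them was that of DDX20, which encodes gemin3, the DEAD-box helicase of the complex. The gene lies on chromosome 1 from 111755245 to 111768016, plus strand (GRCh38). It had 34.1, 20.7 and 31.7 CPM in siANXA1, against 14.96, 13.6 and 10.2 CPM in siControl, so every siANXA1 library was above every siControl library. The means were 28.8 ± 7.12 CPM in siANXA1 and 12.9 ± 2.46 CPM in siControl (SD, n = 3 each), with a log2 fold change of 1.16 ± 0.27 (SE), or 2.23-fold. In edgeR's quasi-likelihood test the unadjusted p was 0.00463 and the adjusted p 0.605. DESeq2 on the same 17947 genes gave an adjusted p of 0.0148 and called DDX20 alone of the 35, where it called 1.44% of all genes. DESeq2 on all 34795 genes with a count, a setting chosen after the data were seen, gave 0.0508 and did not call it. Without each library in turn the log2 fold change ranged from 1.01 to 1.35. Both coding transcripts had higher counts in siANXA1 replicates 1 and 3 than in siControl, and ENST00000369702, 4212 bases long, had 1103, 360 and 959 counts in siANXA1, against 441, 430 and 241 counts in siControl in deposited counts not scaled by library size. The share of its TPM in retained intron transcripts was 9.91, 9.61 and 6.90% in siANXA1, against 13.5, 15.8 and 20.6% in siControl, without overlap, although those transcripts held few counts, at most 13 for the most counted, ENST00000534200.

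GEMIN2, which holds the Sm proteins for the complex, was the 1 gene of the 36 whose siANXA1 libraries all lay below the siControl libraries, at 24.8, 24.2 and 23.8 CPM in siANXA1, against 27.7, 26.9 and 27.4 CPM in siControl. The difference was small, 24.3 ± 0.526 CPM in siANXA1 and 27.3 ± 0.405 CPM in siControl (SD, n = 3 each), with a log2 fold change of -0.17 ± 0.16 (SE) and an adjusted p of 0.780 in edgeR's quasi-likelihood test. With its most abundant transcript alone the log2 fold change was 0.32, so the sign was not the same. STRAP (unrip), a WD-repeat protein of the complex, was its most abundant member and had 215, 193 and 169.9 CPM in siANXA1, against 153, 159 and 202 CPM in siControl. GEMIN8, which links subunits of the complex, was the least abundant of the group at a mean of 8.82 TPM and had 3.84, 4.84 and 5.76 CPM in siANXA1, against 6.32, 4.69 and 6.20 CPM in siControl. Pseudogenes named after GEMIN8 held 97.5% as many counts as the gene, so its level is uncertain.

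SMN1 and SMN2, near-identical copies that both encode the SMN protein, cannot be told apart by most reads. SMN1 had 68.2, 72.2 and 79.1 CPM in siANXA1, against 52.2, 67.8 and 81.0 CPM in siControl, and SMN2 had 52.7, 4.02 and 42.9 CPM in siANXA1, against 37.9, 28.9 and 56.7 CPM in siControl. The low value of SMN2 in siANXA1 replicate 2 stood alone, with 88 counts there against 1165 to 2289 elsewhere. The ratio of SMN2 to SMN1 in TPM was 1.10, 0.0979 and 0.670 in siANXA1, against 1.01, 0.623 and 1.04 in siControl. Summed as 1 gene, the pair had 121, 76.2 and 122 CPM in siANXA1, against 90.1, 96.7 and 138 CPM in siControl, with a log2 fold change of -0.02 ± 0.26 (SE) and an adjusted p of 0.983 in edgeR. The separate value of SMN2 turned sign without siANXA1 replicate 2, to a log2 fold change of 0.22.

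GEMIN4, GEMIN5, GEMIN6, GEMIN7, WDR77 and PRMT5 shared a pattern that crossed the groups. It was the split of the first principal component of all tested genes (39.9% of the variance), so it was not particular to these genes. Of all tested genes, 6.60% had a larger weight on that component, in either direction, than GEMIN5, and 6.89% than WDR77. This share was 10.9% for GEMIN7, 11.2% for GEMIN4, 19.5% for GEMIN6 and 29.5% for PRMT5. GEMIN5, the subunit that recognises the snRNA, had 224, 101 and 219 CPM in siANXA1, against 67.7, 65.3 and 241 CPM in siControl. GEMIN4, a cofactor bound to gemin3, had 73.4, 40.3 and 74.9 CPM in siANXA1, against 28.9, 27.7 and 82.2 CPM in siControl. In both genes siControl replicate 3 was the highest library, siANXA1 replicates 1 and 3 were next, and siControl replicates 1 and 2 were the lowest. GEMIN6, whose product pairs with that of GEMIN7 in an Sm-like fold, had 27.9, 16.7 and 28.96 CPM in siANXA1, against 15.5, 15.1 and 36.9 CPM in siControl. GEMIN7 had 32.1, 7.40 and 28.1 CPM in siANXA1, against 13.9, 13.3 and 26.7 CPM in siControl, with its lowest value in siANXA1 replicate 2. The log2 fold changes of the 4 genes lay between 0.13 and 0.54, none past the threshold, and the 95% interval of GEMIN5 was -0.89 to 1.97. These values depended on single libraries. Without siControl replicate 3 the log2 fold change was 1.44 for GEMIN5 and 1.15 for GEMIN4, and without siControl replicate 2 it was 0.23 and 0.17. DDIT4, a stress-response gene that restrains mTOR, had the opposite split of the libraries, with 109.8, 1435 and 109 CPM in siANXA1, against 2282, 2171 and 189 CPM in siControl. Its part in the values of these genes was not tested.

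**Figure D4:**
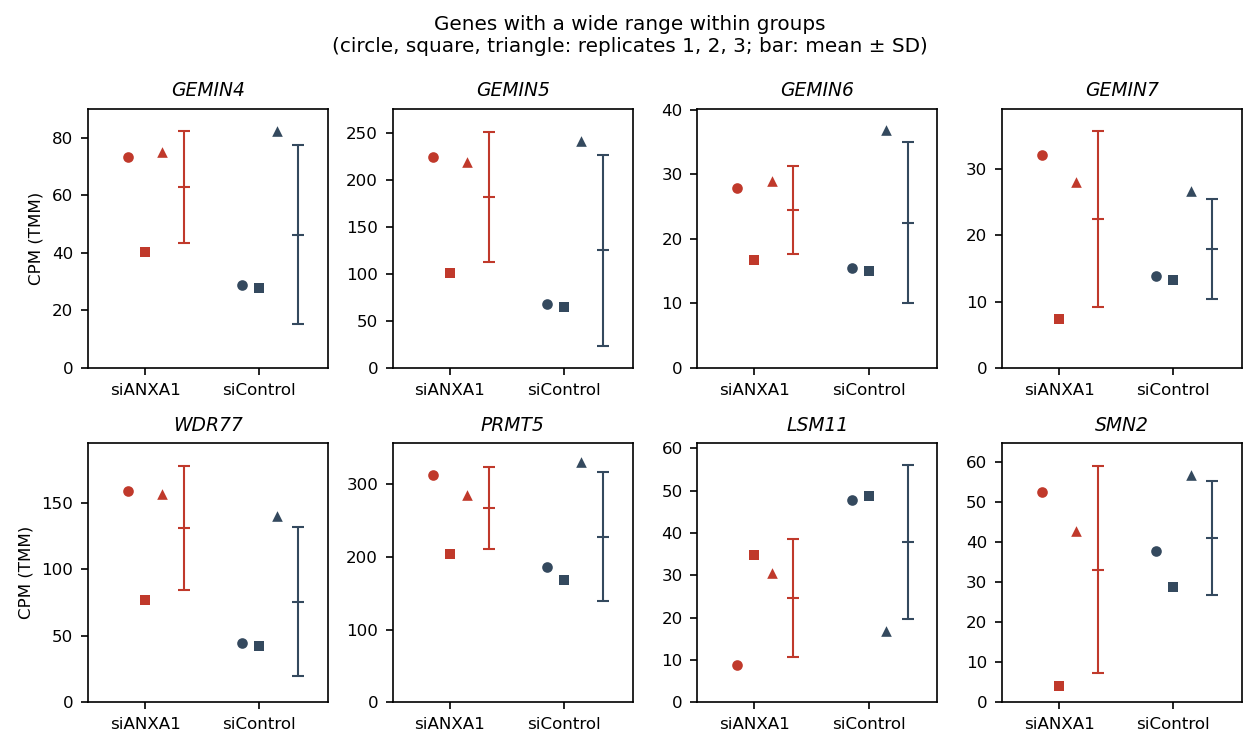
CPM with TMM scaling (y axes, from 0) in each library for 8 genes with a wide range within groups, with mean ± SD beside the points. GEMIN4, GEMIN5, GEMIN6, WDR77 and PRMT5 are highest in siANXA1 replicates 1 and 3 and siControl replicate 3, LSM11 is lowest in siANXA1 replicate 1 and siControl replicate 3, and SMN2 is near 0 in siANXA1 replicate 2 alone.

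The methylosome genes summed to 472, 352 and 519 TPM in siANXA1, against 341, 288 and 477 TPM in siControl. PRMT5, the methyltransferase that forms symmetric dimethylarginine, had 312, 204 and 284 CPM in siANXA1, against 186, 168 and 329 CPM in siControl. WDR77 (MEP50), its cofactor, had 159, 77.04 and 157 CPM in siANXA1, against 44.7, 42.7 and 140.1 CPM in siControl. Both were high in siANXA1 replicates 1 and 3 and siControl replicate 3, and the log2 CPM of WDR77 spanned 1.90 over the 6 libraries, against 0.97 for PRMT5. The ratio of WDR77 to PRMT5 in TPM was 0.407, 0.322 and 0.445 in siANXA1, against 0.199, 0.220 and 0.363 in siControl. WDR77 had a log2 fold change of 0.79 ± 0.55 (SE), with an adjusted p of 0.715 in edgeR's quasi-likelihood test, and PRMT5 0.23 ± 0.30 with 0.828. Without siControl replicate 3 the log2 fold change of WDR77 was 1.58 (edgeR adjusted p = 0.170), and without siControl replicate 2 it was 0.50. For PRMT5 the same fits gave 0.59 and 0.04. CLNS1A, which delivers Sm proteins to PRMT5, did not follow them and had 93.0, 98.1 and 162 CPM in siANXA1, against 193, 116 and 94.5 CPM in siControl.

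Promoter sequences of 31 of the 36 genes were found in the RefSeq table (build GRCh38.p14), with the 250 bases before RefSeq's start taken for each. That start is not always the start in the deposited annotation: it lay 313 bases from it for SNRPG, 344 for SNRPA, 459 for LSM3, 596 for DDX20 and 32846 for SNRPN, and less than 250 for the other genes. The SNRPG window, which holds an ETS match counted below, lies inside the main SNRPG transcript as deposited. The SNRPE window, from 203861597 to 203861846, also holds a counted match. It lies almost wholly inside SNRPE as deposited, which begins at 203861603. The windows of SNRPA, LSM3, DDX20 and SNRPN lie inside their genes as deposited, and some others overlap theirs in part. Not all windows are therefore upstream sequence in the deposited annotation. The ETS core motif CCGGAAG, searched on both strands, was present in 11 of these 31 windows (35.5%), against 8.52% of all 35116 windows in the table and 13.7% of the 15522 windows of genes tested here. The E-box CACGTG was in 2 of 31 (6.45%), against 6.34% of all windows and 8.22% of those of tested genes. The TATA motif TATAAA was in 1 of 31 (3.23%), against 10.7% of all windows and 6.21% of those of tested genes. No motif of the 3 contains another, and a match describes the letters only. The windows below are those of SNRPB, an Sm gene whose groups did not overlap, and of GEMIN4, GEMIN5 and WDR77, which were all high in siANXA1 replicates 1 and 3 and siControl replicate 3. They run from 5' to 3' on the strand of the gene, and capitals mark motif matches, which here are all CCGGAAG or its reverse complement.
SNRPB, chr20:2470790-2471039, minus strand: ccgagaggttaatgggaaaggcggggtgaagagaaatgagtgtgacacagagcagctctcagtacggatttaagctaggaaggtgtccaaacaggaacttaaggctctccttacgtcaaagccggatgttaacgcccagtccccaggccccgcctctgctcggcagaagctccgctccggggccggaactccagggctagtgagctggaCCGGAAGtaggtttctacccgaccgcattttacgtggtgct
GEMIN4, chr17:752265-752514, minus strand: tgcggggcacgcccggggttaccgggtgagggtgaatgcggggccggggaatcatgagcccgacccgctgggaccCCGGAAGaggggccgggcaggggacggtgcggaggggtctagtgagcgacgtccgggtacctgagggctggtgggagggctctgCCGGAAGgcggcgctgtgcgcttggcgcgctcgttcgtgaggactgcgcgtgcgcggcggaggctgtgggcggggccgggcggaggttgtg
GEMIN5, chr5:154938212-154938461, minus strand: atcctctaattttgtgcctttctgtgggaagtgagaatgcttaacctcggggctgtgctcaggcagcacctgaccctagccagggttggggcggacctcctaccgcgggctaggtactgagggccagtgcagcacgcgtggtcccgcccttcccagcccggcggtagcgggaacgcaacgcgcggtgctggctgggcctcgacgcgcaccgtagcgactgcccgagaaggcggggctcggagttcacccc
WDR77, chr1:111449257-111449506, minus strand: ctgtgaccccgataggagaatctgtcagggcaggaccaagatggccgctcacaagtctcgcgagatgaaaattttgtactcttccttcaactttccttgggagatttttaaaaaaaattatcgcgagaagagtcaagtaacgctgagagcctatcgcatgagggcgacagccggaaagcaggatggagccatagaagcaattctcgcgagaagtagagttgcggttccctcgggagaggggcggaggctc
GEMIN4 holds 2 matches and SNRPB 1, while GEMIN5 and WDR77 hold 0. GEMIN8 holds the most, with 3. A link between matches and the levels of the genes was not tested.

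The split of counts among transcripts of a gene set siANXA1 replicate 2 apart for some Sm and LSm genes. For LSM4 the share of TPM in its transcript annotated for nonsense-mediated decay, ENST00000600289, was 69.4, 0.407 and 71.0% in siANXA1, against 68.4, 66.1 and 68.7% in siControl. The coding transcript ENST00000252816 took its place in that library, with 98, 3490 and 13 counts in siANXA1, against 116, 145 and 0 counts in siControl. For SNRPB, whose pre-mRNA is known to include an alternative exon that leads to decay, the share of the decay transcript ENST00000474384 was 11.01, 0.138 and 11.6% in siANXA1, against 13.0, 10.7 and 11.5% in siControl. In siANXA1 replicate 2 another coding transcript, ENST00000438552, was more counted, with 234, 2311 and 195 counts in siANXA1, against 127, 563 and 185 counts in siControl. Over all 266 transcripts of the 36 genes, decay transcripts held 5.25, 1.18 and 5.49% of the TPM in siANXA1, against 8.10, 6.41 and 6.21% in siControl. The groups did not overlap in this share, with siANXA1 replicate 2 far below the rest. The share is relative to the summed TPM of the genes, whose mean was higher in siANXA1. ENST00000600289 of LSM4 itself had 185, 1.57 and 188 TPM in siANXA1, against 213, 195 and 171 TPM in siControl, with overlap. The decay share over all genes was not computed. Other shifts in share were not confined to siANXA1 replicate 2: STRAP had 15.5, 4.33 and 7.62% in siANXA1, against 57.0, 4.28 and 26.1% in siControl in its decay transcript, and SMN2 had 9.27, 89.7 and 12.3% in siANXA1, against 2.90, 90.1 and 9.92% in siControl in retained intron transcripts. The 2 high shares of SMN2 were unlike. All its transcripts together had 10.9 TPM in siANXA1 replicate 2 and 63.7 TPM in siControl replicate 2. The retained intron transcript ENST00000503678 had 5 counts in siANXA1 replicate 2 and 792 in siControl replicate 2. Estimated counts of overlapping transcripts can exchange reads, and no transcript was tested alone.

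**Figure D5:**
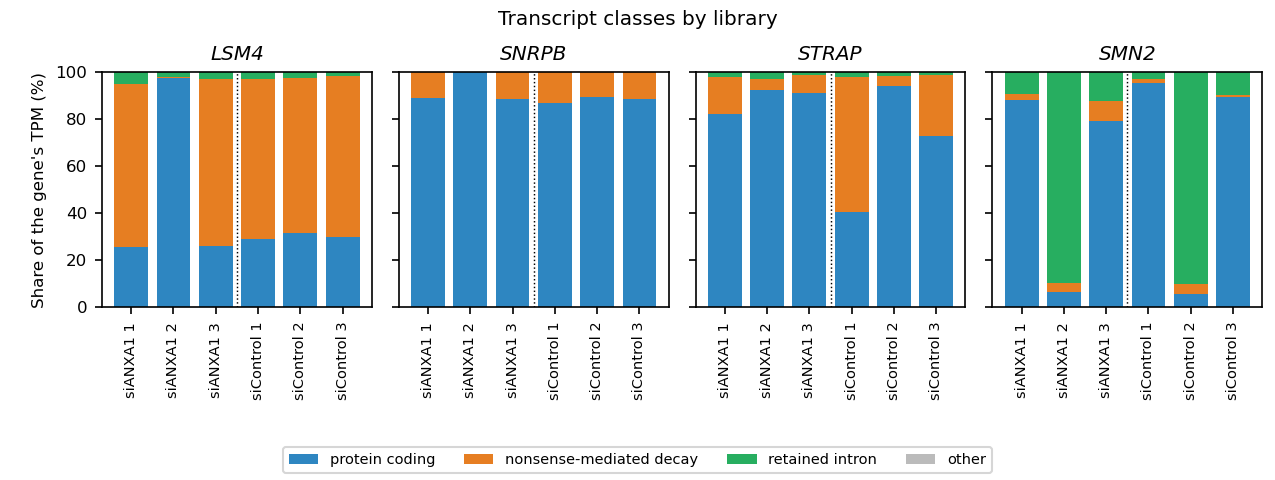
Share of each gene's TPM (y axis, %) by annotated transcript class in each library for LSM4, SNRPB, STRAP and SMN2, with siANXA1 left of the dotted line and siControl right of it. The decay share of LSM4 is near 0 in siANXA1 replicate 2 and between 66.1 and 71.0% elsewhere, while the retained intron share of SMN2 is high in replicate 2 of both groups.

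Genes that act with these proteins were taken as 8 lists of partners, 92 genes in all, and each was tested. Of these, 68 had a positive log2 fold change (73.9%, against 50.5% of all genes tested), and 0 passed the adjusted threshold in edgeR. At an unadjusted p under 0.05, 3 were higher (3.26%) and 2 lower (2.17%), shares no larger than the 3.4% higher and 4.52% lower of all genes. The median log2 fold change of the 92 was 0.15. Every siANXA1 library was higher than every siControl library in 7 of them (7.61%, against 7.41% of all genes tested). Every siANXA1 library was lower in 2 (2.17%, against 7.24% of all genes tested). The smallest p was that of DDX6, a DEAD-box helicase of the decapping machinery that works with the ring holding LSM1, at 341, 247 and 319 CPM in siANXA1, against 164, 189 and 153 CPM in siControl (log2 fold change 0.84, edgeR adjusted p = 0.574, DESeq2 adjusted p = 0.0127). It was the 1 partner called by DESeq2, which called 1.44% of all genes. Among 10 decapping partners 7 were positive, and the next was EDC3, an enhancer of decapping, at 47.1 ± 7.17 CPM in siANXA1 and 34.3 ± 8.98 CPM in siControl (SD, n = 3 each).

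All 7 methylosome adaptors and related arginine methyltransferases had a positive value, with a median of 0.25. PRMT1, the main enzyme for asymmetric dimethylarginine, had 135, 175 and 146 CPM in siANXA1, against 75.2, 81.3 and 133 CPM in siControl, and PRMT7 had 44.3, 43.4 and 46.4 CPM in siANXA1, against 20.1, 23.5 and 41.5 CPM in siControl. In both, all siANXA1 libraries lay above all siControl libraries, by a narrow margin over siControl replicate 3 (edgeR adjusted p = 0.627 and 0.641). Of 10 U2 proteins of the SF3A and SF3B complexes 9 were positive, with SF3B6, which contacts the branch site, at 166 ± 3.64 CPM in siANXA1 and 133 ± 3.66 CPM in siControl (SD, n = 3 each) without overlap, and SF3B5 at 224 ± 24.7 CPM in siANXA1 and 171 ± 45.6 CPM in siControl (SD, n = 3 each). Of 16 U5 and tri-snRNP proteins 12 were positive, but PRPF31, which binds the U4 snRNP and is needed for tri-snRNP formation, was lower without overlap, at 15.6, 63.8 and 12.7 CPM in siANXA1, against 90.6, 84.4 and 135 CPM in siControl (log2 fold change -1.75, edgeR adjusted p = 0.627). PPIH, a peptidyl-prolyl isomerase of the tri-snRNP, stood at 114 ± 39.1 CPM in siANXA1 and 78.8 ± 34.9 CPM in siControl (SD, n = 3 each).

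Among 14 factors for snRNA capping, transport and Cajal bodies 12 were positive, with KPNB1 (importin beta) at 800.5 ± 136 CPM in siANXA1 and 628 ± 109 CPM in siControl (SD, n = 3 each) and SMNDC1, a splicing factor related to SMN, at 51.6 ± 6.72 CPM in siANXA1 and 40.0 ± 12.1 CPM in siControl (SD, n = 3 each). Of 19 genes for snRNA transcription and the Integrator complex 12 were positive, and SNAPC1, a subunit of the snRNA-activating complex, stood at 15.9 ± 4.02 CPM in siANXA1 and 25.7 ± 5.32 CPM in siControl (SD, n = 3 each) (edgeR unadjusted p = 0.0394), with SNAPC3 at 45.5 ± 7.14 CPM in siANXA1 and 37.8 ± 3.78 CPM in siControl (SD, n = 3 each). Of 8 minor spliceosome genes 3 were positive, with PDCD7 at 40.2 ± 4.44 CPM in siANXA1 and 31.7 ± 6.14 CPM in siControl (SD, n = 3 each) and SNRNP25 at 89.8 ± 21.9 CPM in siANXA1 and 63.1 ± 22.6 CPM in siControl (SD, n = 3 each). Of 8 partners of the U7 snRNP and histone mRNA 6 were positive, with NPAT, a coactivator of histone genes, at 67.4 ± 2.08 CPM in siANXA1 and 53.0 ± 10.6 CPM in siControl (SD, n = 3 each) without overlap, and CASP8AP2 at 9.89 ± 6.49 CPM in siANXA1 and 21.3 ± 20.5 CPM in siControl (SD, n = 3 each).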

How the data were processed

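RNA-seq libraries of 3 siANXA1 and 3 siControl samples were grouped by their titles. The authors deposited estimated counts per transcript as whole numbers, not normalized, in an annotated and a plain table, and all 1335690 values were equal in both. That they are estimates was read from the values. Per the labels' protocols, total RNA went into TruSeq libraries. Aligner, counter and strandedness were not given in the sources used here. In the submitters' processing notes the build is mm10, a mouse build, whereas all 266 transcripts of the 36 genes were found at the same position in GENCODE 29 on the human build GRCh38. A further 16014 rows without a gene held 16.9 to 17.7% of all counts in a library and were left out of tests and library sizes.

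Counts summed per gene went into edgeR 4.0.16, run in R 4.3.3 (filterByExpr, TMM, robust glmQLFit, glmQLFTest, group as the only term, two-sided), with Benjamini-Hochberg adjustment over all 17947 genes tested. SEs were derived from the log2 fold change and its F statistic, and 95% intervals from the same degrees of freedom. TPM used the transcript length (another unit, in bases) given in the deposited table. Exact permutation tests ran on log2 CPM with a prior count of 2. The fit was tested on simulated data. Alternatives were 3 other scalings, DESeq2 1.42.0, limma-voom (limma 3.58.1), 2 filters, the most abundant transcript, protein coding genes, a replicate block, a surrogate variable (sva 3.50.0), summed near-identical copies, each library left out, and, added after seeing the data, DESeq2 on all genes with a count. Figures used matplotlib 3.10.9.

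Genes given in every library were those with an unadjusted p under 0.05 or separate groups, the 2 most abundant of each role, and SMN1, SMN2, SNRPN, PRMT5, WDR77 and CLNS1A; GEMIN4 to GEMIN8, SNRPD2, LSM1, LSM8, DDIT4 and the promoters shown were chosen after their values were seen. Of partner lists, the 2 smallest p-values were named. The genes and lists were chosen with earlier results of these data known.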

Additional observations from a re-analysis of the deposited data

How the results depend on the processing

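Of the 36 genes, 0 passed the edgeR threshold with all 6 libraries, and 0 passed without each library in turn or under every other setting but DESeq2 on the filtered genes, where 1 did (DDX20, adjusted p 0.0148). Over all genes 2 were called, against 258 with DESeq2, 160 with DESeq2 on all genes with a count, 1 with the most abundant transcript, 1 with protein coding genes alone, 0 with the surrogate variable and 0 to 7 without each library in turn. Same-numbered libraries had correlations of their deviations of -0.114, 0.263 and 0.256, so the numbers were not taken as pairs, and the fit with the replicate block called 0 genes. Of 664 log2 fold changes under an alternative, 636 kept direction and side of the threshold, 1 became a call (DDX20, 1.16) and 27 changed sign, none of them a call. With the most abundant transcript the sign changed for SNRPA1 (-0.00023), LSM6 (-0.044), SMN1 (-0.34), SMN2 (0.75) and GEMIN2 (0.32), with copies summed for SMN1 (-0.023) and GEMIN8 (0.015), and with upper quartile scaling for SNRPB2 (-0.012). Leaving out each library gave log2 fold changes of -0.20 to 0.31 for SNRPD2, -0.028 to 0.18 for SNRNP70, -0.012 to 0.24 for SNRPA1, -0.037 to 0.14 for SNRPB2, -0.14 to 0.054 for LSM4, -0.12 to 0.32 for LSM7, -0.031 to 0.28 for SMN1, -0.80 to 0.22 for SMN2, -0.099 to 0.68 for GEMIN6, -0.010 to 0.75 for GEMIN7 and -0.49 to 0.15 for CLNS1A. The summed TPM of the 36 genes had a log2 ratio of siANXA1 to siControl of 0.21, against 0.20 in CPM and 0.25 in coding transcripts alone, where alone of the 3 the groups did not overlap.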

Other observations

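Genes annotated as snRNA were little represented. They include the snRNAs that these proteins assemble on, but also pseudogenes, such as RNU6-705P, and RN7SK. All 1909 genes annotated as snRNA together had 1217, 618 and 975 counts in siANXA1, against 1074, 881 and 761 counts in siControl. Relative to library totals this was 27.6, 28.97 and 26.3 CPM in siANXA1, against 26.2, 22.2 and 21.9 CPM in siControl (without TMM), and the siANXA1 libraries all lay above the siControl libraries, by less than 1 CPM for the nearest pair. The most counted of them was RN7SK, the 7SK RNA, which carries no Sm ring and holds an elongation factor inactive, with 254, 73 and 199 counts in siANXA1, against 232, 61 and 64 in siControl. These genes were looked at after the other values were seen, many snRNA genes are near-identical copies, and none was tested.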
